A study of Mus musculus with 8 samples.

Results

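The genes described here are 10 members of the semaphorin, plexin and neuropilin guidance system, taken by name from the 49315 genes counted in each library. They comprise 4 class 3 semaphorins (Sema3a, Sema3c, Sema3d and Sema3e), the membrane-bound ligand Sema6a, the plexins Plxna2, Plxna4 and Plxnd1, and the neuropilins Nrp1 and Nrp2. All 10 had enough counts to be tested. Whole mouse hearts at embryonic day 9.5 were profiled by poly-A selected RNA-seq in 4 wild-type and 4 Tbx20EH1Mut libraries, with 3 pooled hearts in each. Tbx20EH1Mut embryos were homozygous for amino acid substitutions in the engrailed homology 1 (EH1) motif of Tbx20, the stretch through which this cardiac T-box factor binds TLE corepressors. The allele was made by genome editing in embryos from C57BL/6J oocytes and Tbx20Avi/+ sperm, the founder carried no Avi tag and the line was back-crossed; the control embryos were labelled WT. The comparison asks which genes differ in level when Tbx20 carries this substitution.

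Class 3 semaphorins are secreted proteins that steer migrating and extending cells. Neuropilins bind most of them but have only a short intracellular tail, and plexins carry the signal into the cell, where small GTPases and the cytoskeleton respond. In the embryonic heart the system is known for guiding cardiac neural crest into the outflow tract, for septation of that vessel and for patterning endothelium, and neuropilins also bind vascular endothelial growth factors.

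Levels are given as CPM, counts scaled to one common library size, as mean ± SD over 4 libraries, and TPM is used where levels of different genes are set side by side. A gene was called when edgeR's quasi-likelihood test gave a Benjamini-Hochberg adjusted p below 0.05 and an absolute log2 fold change above 0.5. A log2 fold change is Tbx20EH1Mut over wild type. Total counts were 33359322 to 49523086 in the wild-type libraries and 36250675 to 38357025 in the Tbx20EH1Mut libraries (exact two-sided permutation test, p = 0.143). Wild-type hearts had 368 ± 11.1 CPM of Tbx20 itself and Tbx20EH1Mut hearts had 267 ± 44.9 (log2 fold change -0.46, adjusted p = 0.0273), which is no check of the genotype, since the allele changes codons and removes no exon. Wild-type replicate 1 stood nearer to the Tbx20EH1Mut libraries than the other wild-type libraries on the first principal component. In wild-type replicate 2, genes with at least 7000 bases of exon had a median log2 deviation of 0.28 from their mean over all libraries, against -0.09 to 0.02 in the other libraries. The exons of every gene of the set exceed that length, so values without this library are given where they matter.

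Of the 10 genes, 4 were called, against 24.6% of the 17163 genes tested. Sema3c, Sema3e and Sema6a were higher in Tbx20EH1Mut hearts, where 12.5% of all genes tested were called higher, and Nrp1 was lower, where 12.1% were. The other 6 were not called. The median log2 fold change of the set was 0.15, with a range of -0.64 to 2.07, and that of all genes tested was 0.0048. In 5 of the 10 genes the range of the wild-type libraries did not overlap that of the Tbx20EH1Mut libraries, against 30.5% of genes tested. In Sema3c, Sema3e and Sema6a the Tbx20EH1Mut libraries lay above (14.7% of genes tested), and in Sema3a and Nrp1 they lay below (15.7%).

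**Figure D1:**
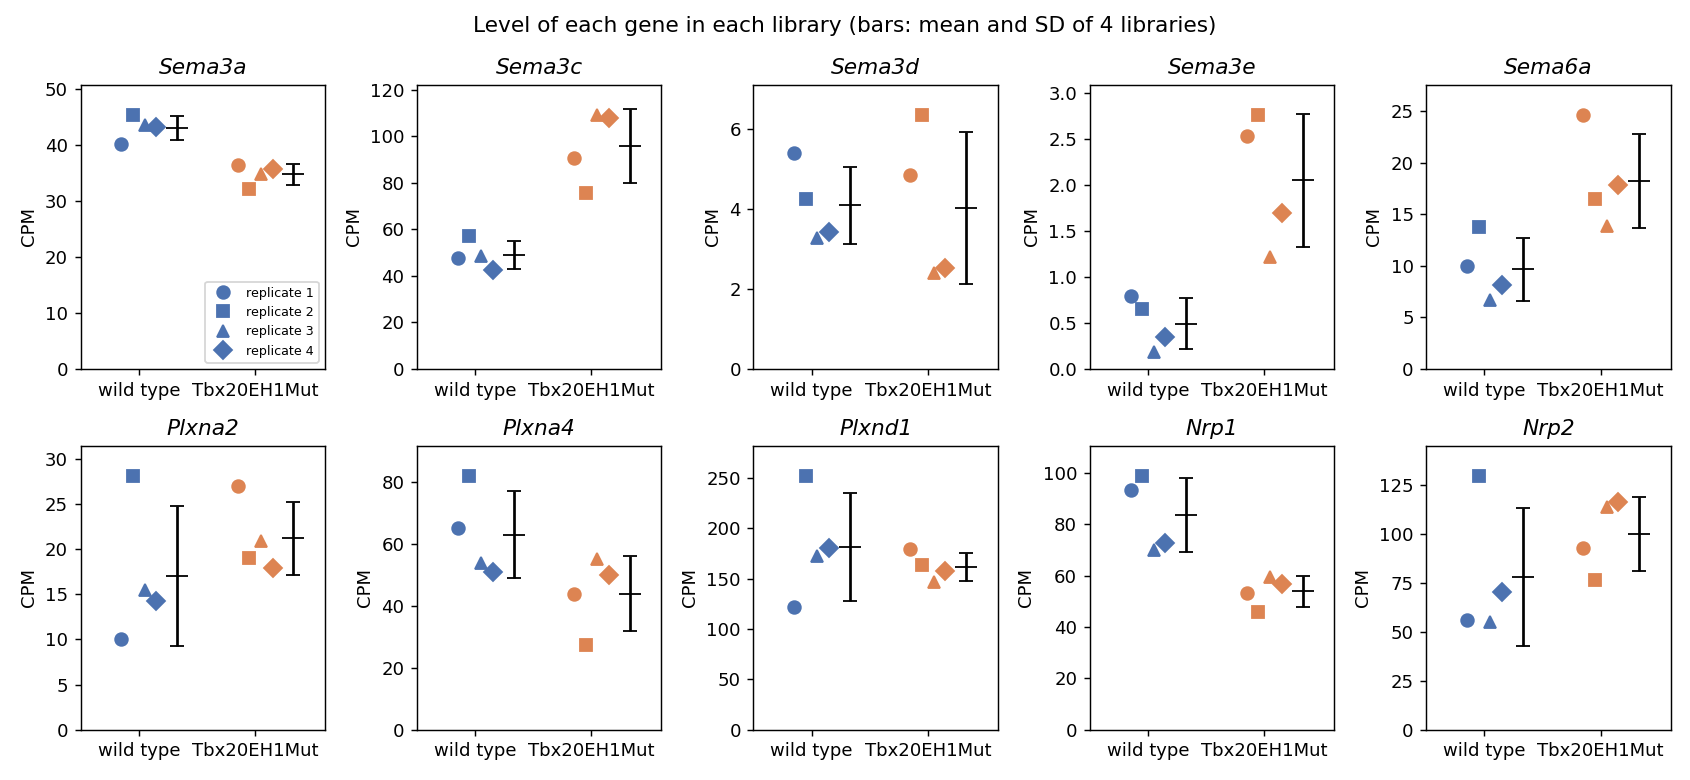
Level of each gene in CPM (vertical axis, from 0) in each of the 4 wild-type (blue) and 4 Tbx20EH1Mut (orange) libraries; the marker shape gives the replicate number and the black bars the mean and SD. Sema3a, Sema3c, Sema3e, Sema6a and Nrp1 have groups that do not overlap, and wild-type replicate 2 is the highest wild-type library in all genes but Sema3d and Sema3e.

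Sequence upstream of the start of transcription is shown for Sema3e and Nrp1, which were called, and for Nrp2, because it held the only T-box match. The sequences are from RefSeq on GRCm38.p6, which listed a window of 250 bases for 8 of the 10 genes, all but Sema6a and Plxna4. The Sema3e stretch lies on the plus strand at chr5:14025026-14025275, directly before the gene's first counted exon. The Nrp1 stretch lies on the plus strand at chr8:128358823-128359072, within the counted gene but outside its annotated exons. The Nrp2 stretch lies on the plus strand at chr1:62703067-62703284 and ends at the base before the first annotated exon. Capitals mark GGTGTG, the core of a T-box half-site, or its reverse complement CACACC.

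Sema3e: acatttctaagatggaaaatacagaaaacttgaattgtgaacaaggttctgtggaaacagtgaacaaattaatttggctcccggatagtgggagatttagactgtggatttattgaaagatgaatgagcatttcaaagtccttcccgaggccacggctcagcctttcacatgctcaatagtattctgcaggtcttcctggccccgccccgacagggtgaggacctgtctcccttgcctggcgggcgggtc

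Nrp1: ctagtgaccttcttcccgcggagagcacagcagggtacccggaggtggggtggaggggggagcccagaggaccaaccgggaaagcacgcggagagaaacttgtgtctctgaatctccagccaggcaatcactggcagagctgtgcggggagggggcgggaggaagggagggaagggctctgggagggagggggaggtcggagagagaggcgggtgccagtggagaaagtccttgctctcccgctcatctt

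Nrp2: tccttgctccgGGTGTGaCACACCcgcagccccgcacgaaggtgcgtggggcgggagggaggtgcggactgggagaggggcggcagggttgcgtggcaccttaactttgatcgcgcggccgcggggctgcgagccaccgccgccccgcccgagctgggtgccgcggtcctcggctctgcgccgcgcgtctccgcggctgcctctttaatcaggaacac

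Read on both strands, GGTGTG occurred in the window of Nrp2, on each strand, and in none of the other 7 windows, while 16.3% of 32851 windows of the same length over all genes held it. The GATA core AGATAA (reverse complement TTATCT) occurred in none of the 8 windows and in 9.99% of all windows. Not all windows lay before the counted gene. That of Sema3a, at chr5:13396534-13396783, lay within the counted gene, and those of Sema3c, Plxna2 and Nrp2 reached annotated exons. The windows differed in base composition. Sema3c had 78.4% G and C with 39 CG dinucleotides and Nrp2 72.4% with 32, while Sema3a had 40.8% with 2 and Sema3e 48.0% with 7. The median window over all genes had 52.4% and 6.

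Of the class 3 ligand genes, Sema3c and Sema3e rose, and Sema3a and Sema3d were not called. All 4 lie on chromosome 5 of GRCm38: Sema3d at chr5:12383385-12588948, Sema3a at chr5:13125414-13602565, Sema3e at chr5:14025276-14256689 and Sema3c at chr5:17574281-17730268, each on the plus strand.

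Sema3c, the ligand that draws cardiac neural crest cells towards the outflow tract and signals through both neuropilins, was present at 47.8, 56.9, 48.6 and 42.5 CPM in wild-type replicates 1 to 4. The Tbx20EH1Mut replicates had 90.5, 75.4, 109 and 108 CPM. Every Tbx20EH1Mut library lay above every wild-type library, and the wild-type libraries spanned a narrow range. The means were 49.0 ± 5.97 and 95.7 ± 15.9 CPM, a 1.95-fold rise (log2 fold change 0.97, SE 0.14, 95% interval 0.65 to 1.29, adjusted p = 0.00148, edgeR, n = 4 and 4). Leaving out any 1 library moved the log2 fold change between 0.90 and 1.06, and Sema3c was called each time.

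Sema3e, which binds Plxnd1 directly without a neuropilin, was the least abundant of the 10 genes, with 9 to 32 counts per wild-type library and 39 to 104 per Tbx20EH1Mut library. Wild-type replicates 1 to 4 had 0.789, 0.652, 0.179 and 0.349 CPM, and Tbx20EH1Mut replicates 2.54, 2.76, 1.22 and 1.70 CPM. The groups did not overlap, and in each of them replicates 1 and 2 were the higher libraries. The log2 fold change was 2.07 (SE 0.48, 95% interval 1.02 to 3.13, adjusted p = 0.0107), the largest of the 10 in size and also the one with the widest interval. It stayed between 1.78 and 2.37, and called, with any 1 library left out.

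Sema3a, a repulsive ligand that signals through Nrp1 and class A plexins, had 40.1, 45.2, 43.6 and 43.2 CPM in wild-type and 36.4, 32.1, 34.9 and 35.6 CPM in Tbx20EH1Mut libraries. The groups did not overlap, and the SD within each was small, at 2.16 and 1.89 CPM. The log2 fold change was -0.31 (SE 0.10, 95% interval -0.52 to -0.10). Its adjusted p of 0.0363 passed, as for 29.3% of genes tested in either direction and 15.3% in the lower direction, but the size missed the fold threshold. With 1 library left out the adjusted p ran from 0.0249 to 0.0929.

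Sema3d, a ligand linked to pulmonary vein patterning and endothelial guidance, had 5.40, 4.26, 3.29 and 3.43 CPM in wild-type and 4.84, 6.35, 2.41 and 2.52 CPM in Tbx20EH1Mut libraries. The groups overlapped throughout, and the Tbx20EH1Mut libraries fell into a higher pair (replicates 1 and 2) and a lower pair. The log2 fold change was -0.02 with a 95% interval of -0.77 to 0.73 (adjusted p = 0.971), so a difference of up to about that size in either direction remains possible.

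Sema6a, a transmembrane ligand of Plxna2 and Plxna4, lies at chr18:47235598-47368870 on the minus strand. Its wild-type libraries had 9.95, 13.8, 6.67 and 8.16 CPM, and the Tbx20EH1Mut libraries 24.6, 16.5, 13.9 and 17.9 CPM. The groups did not overlap, but the highest wild-type library, replicate 2, nearly reached the lowest Tbx20EH1Mut library, replicate 3. The rise was 1.89-fold (log2 fold change 0.92, SE 0.25, 95% interval 0.37 to 1.46, adjusted p = 0.0205). The call was lost without wild-type replicate 3 (adjusted p = 0.0606), wild-type replicate 4 (0.0667), Tbx20EH1Mut replicate 1 (0.0539) or Tbx20EH1Mut replicate 4 (0.0517), with log2 fold changes of 0.75 to 0.93.

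None of the 3 plexins, the signalling receptors of the system, was called. Plxnd1 (chr6:115954811-115995005, minus strand), the receptor of endothelium and endocardium, had 122, 252, 173 and 180.0 CPM in wild-type and 179, 163, 146 and 158 CPM in Tbx20EH1Mut libraries. The wild-type libraries held both the lowest and the highest value, and the Tbx20EH1Mut libraries lay between them (log2 fold change -0.17, 95% interval -0.59 to 0.26, adjusted p = 0.526).

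Plxna4 (chr6:32144268-32588192, minus strand), a receptor for Sema3a with a neuropilin and for Sema6a, had 65.2, 81.9, 53.8 and 50.9 CPM in wild-type and 43.8, 27.2, 55.04 and 49.9 CPM in Tbx20EH1Mut libraries. Tbx20EH1Mut replicate 3 lay within the wild-type range and the other 3 below it. The log2 fold change was -0.52 (SE 0.22, 95% interval -1.01 to -0.03, adjusted p = 0.101). An antisense gene, Plxna4os3, covers 0.78% of its exon bases and had 0 counts.

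Plxna2 (chr1:194618218-194816869, plus strand), a receptor for Sema3c in neural crest cells and for Sema6a, had 10.1, 28.1, 15.5 and 14.3 CPM in wild-type and 27.0, 19.0, 20.9 and 17.9 CPM in Tbx20EH1Mut libraries. The 4 Tbx20EH1Mut libraries lay above 3 of the wild-type libraries and below replicate 2. With all libraries the log2 fold change was 0.32 (SE 0.28, 95% interval -0.30 to 0.94, adjusted p = 0.407), and without wild-type replicate 2, where long genes were high, it was 0.68 (adjusted p = 0.0311). An offset on gene length, with all libraries kept, gave 0.40 (adjusted p = 0.177) and no call.

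Of the neuropilins, Nrp1 fell and Nrp2 was not called. Nrp1 (chr8:128358604-128503363, plus strand), the coreceptor for Sema3a and for VEGF-A, had 93.1, 98.7, 70.002 and 72.7 CPM in wild-type and 53.3, 45.8, 59.3 and 56.8 CPM in Tbx20EH1Mut libraries. No Tbx20EH1Mut library reached the lowest wild-type library. The means were 83.6 ± 14.4 and 53.8 ± 5.89 CPM, so Nrp1 was 1.55-fold lower (log2 fold change -0.64, SE 0.14, 95% interval -0.95 to -0.32, adjusted p = 0.00956). It was called with any 1 library left out, at -0.72 to -0.54. A microRNA gene, Mir1903, overlaps 0.818% of its exon bases and had 0 counts.

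Nrp2 (chr1:62703285-62818695, plus strand), the coreceptor that takes Sema3c, Sema3f and VEGF-C, had 56.4, 129.8, 55.1 and 70.7 CPM in wild-type and 93.0, 76.6, 114 and 117 CPM in Tbx20EH1Mut libraries. All Tbx20EH1Mut libraries exceeded 3 of the wild-type libraries, and wild-type replicate 2 exceeded them all. The log2 fold change was 0.36 (SE 0.27, 95% interval -0.24 to 0.96, adjusted p = 0.3301), and without wild-type replicate 2 it was 0.73 (adjusted p = 0.0130). The offset on gene length gave 0.51 (adjusted p = 0.0900) and no call. For Nrp2 and Plxna2 a single wild-type library thus decided the call.

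**Figure D2:**
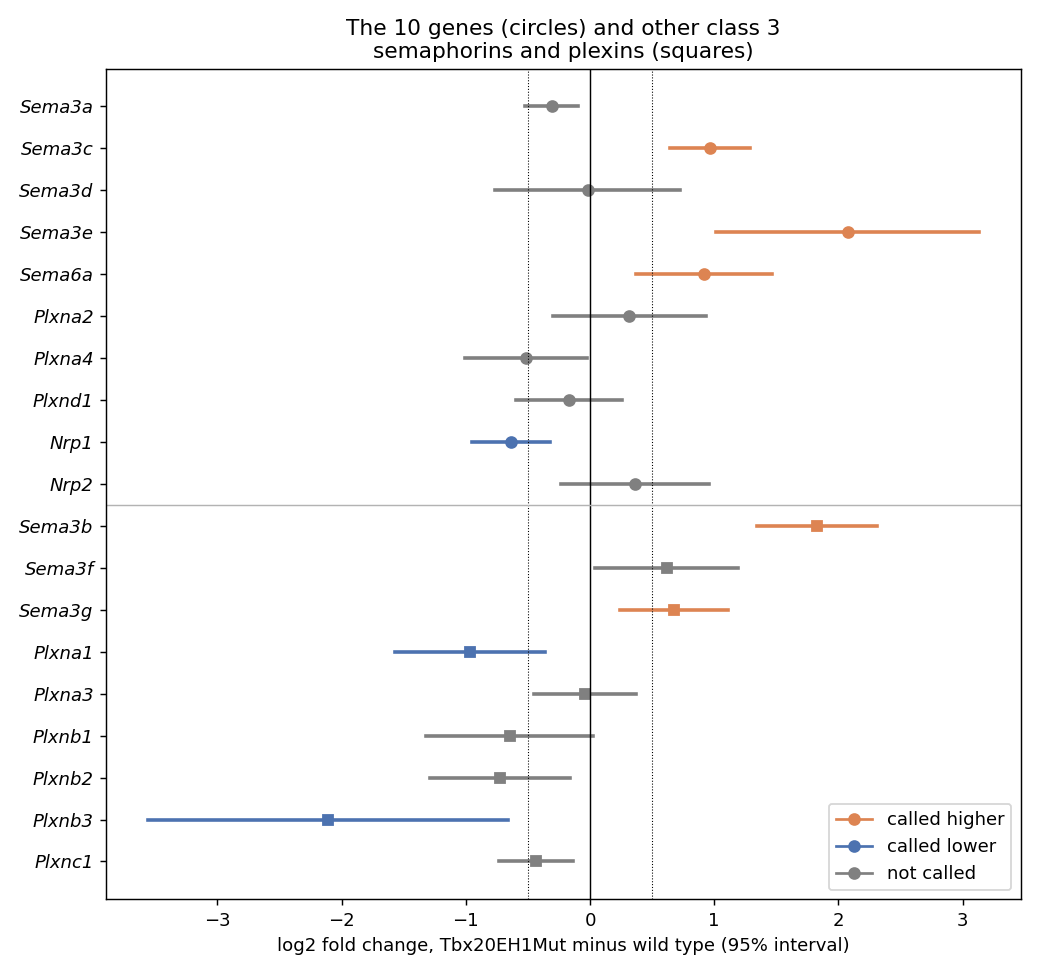
Log2 fold change, Tbx20EH1Mut minus wild type (horizontal axis), with its 95% interval for the 10 genes (circles) and for the other class 3 semaphorins and plexins (squares); dotted lines mark the fold threshold of 0.5 in either direction. Orange genes were called higher, blue lower and grey not called; the intervals of Sema3c, Sema3e, Sema6a and Nrp1 exclude 0, as do those of Sema3a and Plxna4, which were not called.

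Per length of transcript, Plxnd1 was the most abundant of the 10 genes in wild-type hearts, at 66.1 ± 29.7 TPM. Nrp1 followed at 22.2 ± 6.37, Sema3c at 17.8 ± 4.76, Nrp2 at 17.8 ± 11.1, Plxna4 at 11.7 ± 4.31 and Sema3a at 8.02 ± 1.57 TPM, and each of these overlapped its neighbour in range. Sema6a (2.90 ± 1.36), Plxna2 (2.68 ± 1.67), Sema3d (1.22 ± 0.297) and Sema3e (0.137 ± 0.0800) were the lowest. Among neighbours in this order, the ranges over libraries separated only Plxnd1 from Nrp1, Sema3a from Sema6a and Sema3d from Sema3e.

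In Tbx20EH1Mut hearts Plxnd1 stayed first at 48.3 ± 8.99 TPM, and Sema3c came next at 28.7 ± 3.20, ahead of Nrp2 at 18.1 ± 2.46 and Nrp1 at 11.8 ± 0.933. The ranges of these 4 did not overlap, so the order of Sema3c, Nrp2 and Nrp1 was resolved there and not in wild-type hearts. Plxna4 (6.64 ± 1.42), Sema3a (5.43 ± 0.641) and Sema6a (4.56 ± 1.52) each overlapped the next, Plxna2 (2.69 ± 0.688) lay apart from Sema3d, and Sema3d (1.05 ± 0.579) overlapped Sema3e (0.493 ± 0.214).

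Shares within the set followed from these levels. Of the summed TPM of its 4 class 3 ligands, Sema3c made up 65.2% ± 2.04 in wild-type and 80.4% ± 3.82 in Tbx20EH1Mut hearts. Sema3a made up 29.7% ± 2.37 and 15.2% ± 1.44. Sema3d made up 4.55% ± 1.06 and 2.99% ± 1.79, and Sema3e 0.5005% ± 0.273 and 1.39% ± 0.644. Outside that sum were Sema3b (mean 2.66 TPM in wild-type and 7.94 in Tbx20EH1Mut hearts), Sema3f (9.41 and 12.1) and Sema3g (5.13 and 6.85). The percentages are therefore not shares of all class 3 ligands, among which that of Sema3c is lower in both groups. Nrp1 was the larger part of the neuropilin sum in wild-type hearts, at 57.7% ± 7.94, and the smaller part in Tbx20EH1Mut hearts, at 39.7% ± 2.22. Wild-type replicate 2 was the only wild-type library in which Nrp1 was below Nrp2, at 47.9%.

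**Figure D3:**
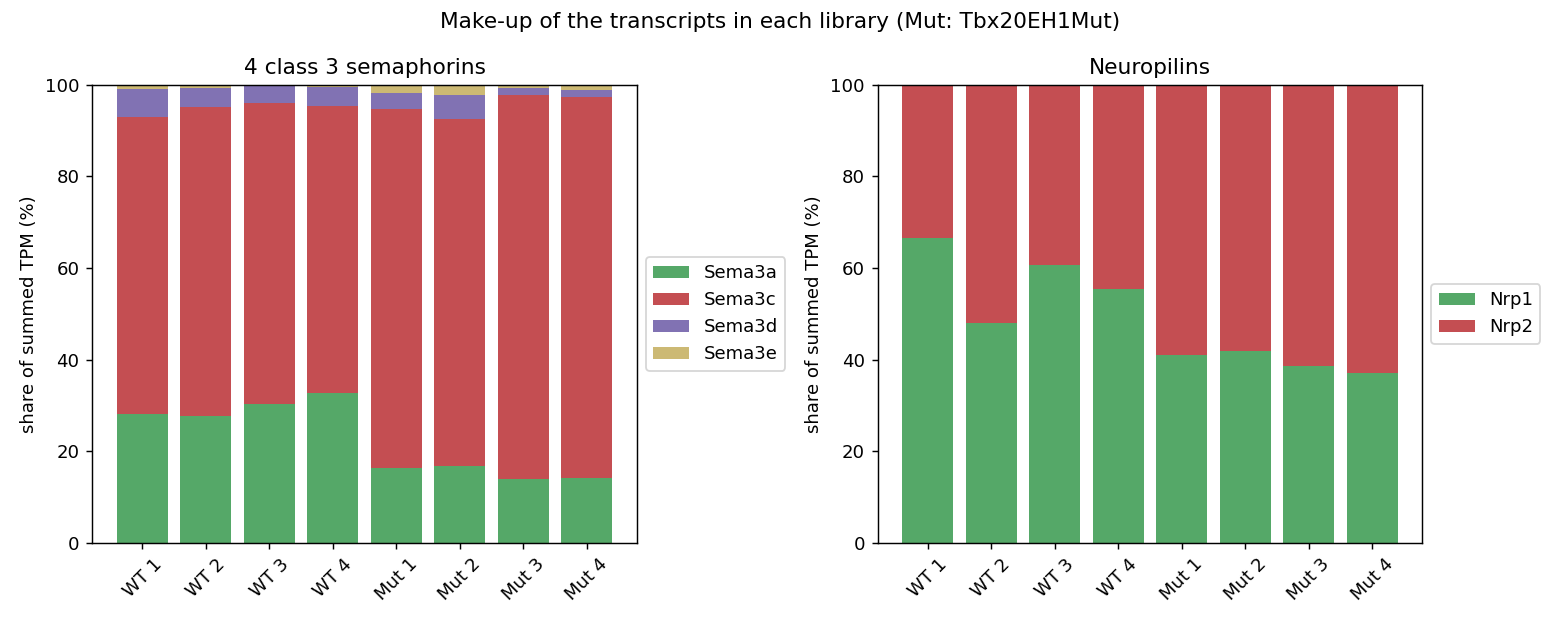
Share (%) of each gene in the summed TPM of the set's 4 class 3 semaphorins (left) and of the neuropilins (right), per wild-type (WT) and Tbx20EH1Mut (Mut) library. The ligand sum leaves out Sema3b, Sema3f and Sema3g. Sema3c takes 62.6% to 67.6% of the sum of these 4 ligands in wild-type and 75.9% to 83.9% in Tbx20EH1Mut libraries. Nrp1 takes 47.9% to 66.7% and 37.1% to 42.0% of the neuropilin sum.

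Ratios within a library do not depend on how libraries are scaled to each other. A deviation with gene length, as in wild-type replicate 2, need not cancel where the 2 genes differ in length. Sema3c has 7140 exon bases and Sema3a 13868, and Plxna2 has 17174 and Plxna4 14103. The part of gene length in the ratios was not tested. Of 5 ratios of TPM tested by an exact two-sided permutation test over 70 arrangements, 3 reached the smallest p that 4 against 4 libraries can give, 0.0286 (adjusted p = 0.0476 over the 5). Sema3c over Sema3a was 1.91 to 2.45 in wild-type and 4.56 to 6.07 in Tbx20EH1Mut libraries. Nrp2 over Nrp1 was 0.49998 to 1.09 and 1.38 to 1.70.

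Plxna2 over Plxna4 was 0.127 to 0.282 in wild-type and 0.295 to 0.573 in Tbx20EH1Mut libraries, a separation that neither gene showed alone. Wild-type replicate 2 was the highest wild-type library in all 3 ratios and still lay below every Tbx20EH1Mut library. Sema3c over Sema3d (14.9 ± 3.05 and 35.7 ± 20.3, exact permutation p = 0.114, n = 4 and 4) and Plxnd1 over Nrp1 (2.95 ± 0.797 and 4.08 ± 0.684, exact permutation p = 0.0857) overlapped between groups. The ratios were chosen with the levels known and reuse the counts of the tests above.

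Several marker genes of the cells a dissected heart can hold differed between the groups beside these genes. The marker counts below stand against 12.5% of all genes tested called higher and 12.1% called lower. In whole hearts, fewer cells of a type and less RNA per cell cannot be told apart. Cardiac muscle was present as labelled: the summed level of 8 cardiomyocyte markers was 22950 to 32817 CPM in wild-type and 24371 to 37832 CPM in Tbx20EH1Mut libraries (exact permutation p = 0.771, n = 4 and 4). Of these 8, 1 was called higher, Myl3 (log2 fold change 0.75, edgeR adjusted p = 0.0451). The 8 endothelial and endocardial markers, for the cells in which Plxnd1 and the neuropilins are best known, summed to 602 to 713 and 699.6 to 783 CPM (exact permutation p = 0.0571). Of these 8, 3 were called higher, Pecam1, Emcn and Esam. Nfatc1 (log2 fold change -0.42), Tek (-0.25) and Cdh5 (-0.13) went the other way and were not called.

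The neural crest markers were scarce in both groups. Foxd3 and Tfap2b stood at 0 or below 1 CPM in every library and Sox10 at 0 to 1.21 CPM. The sum of the 8 markers, most of it Twist1, which other mesenchyme also expresses, was 44.0 to 61.1 CPM in wild-type and 35.7 to 74.8 CPM in Tbx20EH1Mut libraries (exact permutation p = 0.543, n = 4 and 4), with 1 of the 5 tested called higher.

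Markers of second heart field progenitors, the source of outflow tract muscle, summed to 220.1 to 250.3 CPM in wild-type and 349 to 485 CPM in Tbx20EH1Mut libraries (exact permutation p = 0.0286, n = 4 and 4), with 3 of 6 called higher. Hand2, the most abundant of the list in wild-type hearts and also a gene of the heart tube, went the other way, with 182 to 189 CPM in wild-type and 141 to 163 CPM in Tbx20EH1Mut libraries (log2 fold change -0.29, adjusted p = 0.0437, not called). Of the genes called, Isl1, the defining factor, reached 26.1, 24.7, 12.5 and 15.9 CPM in wild-type and 102, 77.9, 171 and 129 CPM in Tbx20EH1Mut libraries. Sema3c and Isl1 ranked the Tbx20EH1Mut replicates alike (3, 4, 1, 2 from the highest), as did Nrp1 and Plxna4, and they ranked the wild-type replicates differently. The first principal component of all genes tested, with 57.6% of the variance, also set the Tbx20EH1Mut libraries in that order. The shared ranking is therefore not particular to these genes. The part of second heart field cells in the Sema3c result was not tested.

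The 8 foregut epithelium markers summed to 83.8 to 140.0 CPM in wild-type and 327 to 499 CPM in Tbx20EH1Mut libraries (exact permutation p = 0.0286, n = 4 and 4), with 5 of 8 called higher. Krt19 made up most of the sum in every library, and on other markers wild-type replicate 2 stood above its group, with Epcam at 15.3 CPM against 0.657 to 3.03 and Cldn6 at 20.8 against 0.139 to 1.90. The sum was highest in Tbx20EH1Mut replicates 1 and 2 and lowest in replicate 3, as were the levels of Sema3e and Sema3d, while Sema6a was highest in replicate 1 and lowest in replicate 3. With the mean foregut marker level as a covariate, Sema3e was no longer called (log2 fold change 1.11, adjusted p = 0.277) and neither was Sema6a (0.20, adjusted p = 0.598). Sema3c and Nrp1 were called with that covariate, at 0.96 and -0.76, and Plxnd1 was called lower (-0.67, adjusted p = 0.0283). That fit called 5884 of the 17163 genes tested, 3070 of them lower, against 4218 and 2070 without the covariate. The covariate was a mean of log2 levels and was not itself compared between the genotypes. On all of its markers but Shh and Krt19, wild-type replicate 2 exceeded Tbx20EH1Mut replicate 3, as for Cldn6 (20.8 against 4.56 CPM). Since 5 of the 8 markers were called higher, the fit cannot tell the foregut signal and the genotype fully apart.

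Erythroid markers went the other way, with 1756 to 4593 CPM in wild-type and 319 to 1026 CPM in Tbx20EH1Mut libraries (exact permutation p = 0.0286, n = 4 and 4) and 6 of 6 called lower. The neural tube list summed to 214 to 232 and 241 to 263 CPM (exact permutation p = 0.0286), nearly all of it Nes. Of its 5 genes tested 2 were called higher, Pax6 (1.33 to 2.97 and 4.67 to 8.31 CPM) and Nkx6-1 (0.0199 to 0.570 and 0.813 to 3.70 CPM), while Sox3 (4.46 to 10.1 and 3.44 to 7.46 CPM), Elavl3 and Nes were not called and Sox1 was at or near 0 in every library. Adjusted over the 7 marker lists, each of the 4 sums with p = 0.0286 had an exact permutation p of 0.050, at the threshold and not below it. The part of these markers in the results for the 10 genes was not tested.

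**Figure D4:**
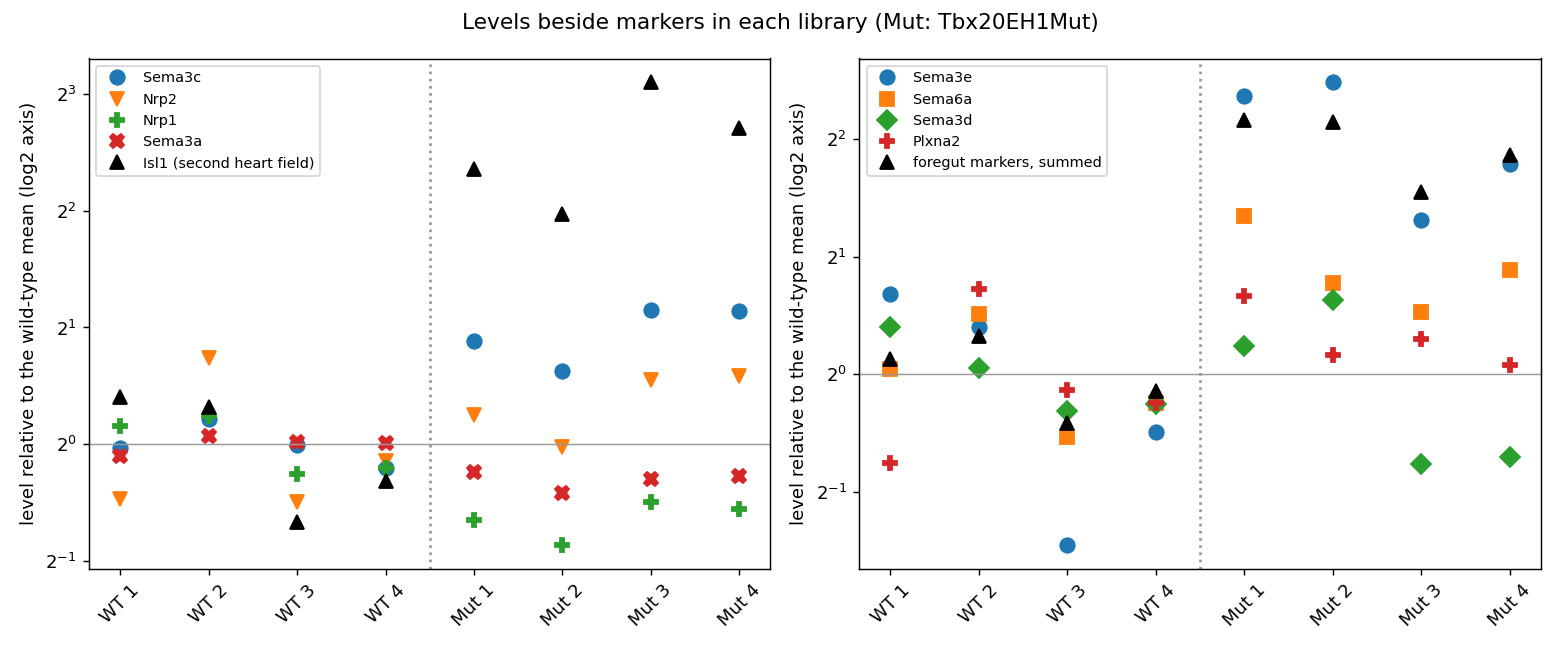
Level of 8 of the genes in each wild-type (WT) and Tbx20EH1Mut (Mut) library relative to the wild-type mean, on a log2 axis, beside Isl1 (left, black triangles) and the sum of 8 foregut epithelium markers (right, black triangles). Within the Tbx20EH1Mut libraries Sema3c and Nrp1 rank the replicates as Isl1 does, which neither does in the wild-type libraries. The first principal component of all genes tested gives the Tbx20EH1Mut libraries the same order. Sema3e is highest in Tbx20EH1Mut replicates 1 and 2, as the foregut sum is.

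The profile of Sema3c over the 8 libraries was compared with that of 10947 genes averaging 5 CPM or more, by the mean absolute difference of log2 CPM centred on each gene's mean. The closest were Dach1 (0.05), which encodes a nuclear cofactor, Gramd1b (0.08), which encodes a sterol transporter, and Rasl11a (0.08), which encodes a Ras-like protein. Dach1 stood at 30.9 ± 3.65 and 61.0 ± 12.1 CPM in the groups. Of the other genes of the set, Sema6a (0.30) and Nrp2 (0.32) were nearest to Sema3c, at ranks 1199 and 1402.

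Beyond the 10 genes, 43 of 45 further genes of the pathway could be tested, of which 10 were called higher and 7 lower. That is 39.5%, against 24.6% of all genes tested, with a median log2 fold change of -0.04. Of the other class 3 ligands, Sema3b rose from 4.88 ± 1.23 to 17.3 ± 2.88 CPM (log2 fold change 1.83, SE 0.22, adjusted p = 4.96e-04), its groups wide apart. Sema3g, a ligand of endothelial cells, rose from 8.90 ± 2.14 to 14.3 ± 1.71 CPM (0.68, adjusted p = 0.0276), a call lost in 4 of 8 fits that left out 1 library. It was also lost with library size alone (adjusted p = 0.0589), with the replicate block (0.0621) and with the foregut covariate (log2 fold change 0.46, adjusted p = 0.262). Sema3f, a ligand of Nrp2, had 18.5 ± 5.11 and 28.4 ± 9.87 CPM and was not called (0.62, adjusted p = 0.0946), except with the length offset (0.70, adjusted p = 0.0276), without wild-type replicate 2 (0.83, 0.0428) or without Tbx20EH1Mut replicate 3 (0.79, 0.0354).

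Among the ligands of classes 4 to 7, 4 of 11 were called higher and none lower, against 12.5% and 12.1% of all genes tested. Sema4d, which binds Plxnb1, had 10.7 to 12.9 CPM in wild-type and 24.0 to 29.2 CPM in Tbx20EH1Mut libraries (log2 fold change 1.19, adjusted p = 1.85e-04). Sema4g rose from 7.53 ± 2.503 to 19.2 ± 5.68 CPM (1.35, adjusted p = 0.00582), and was not called with the foregut covariate (0.49, adjusted p = 0.171). The others, Sema6b (1.09) and Sema6c (0.87), are relatives of Sema6a and are named because they complete this count.

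Of the 6 other plexins none was called higher and 2 were called lower (12.1% of all genes tested), Plxna1 and the scarce Plxnb3, which is named to complete the count. Plxna1, a receptor that pairs with neuropilins, had 28.4, 68.8, 36.5 and 41.0 CPM in wild-type and 28.3, 25.7, 15.8 and 19.7 CPM in Tbx20EH1Mut libraries. The lowest wild-type and the highest Tbx20EH1Mut library nearly met (log2 fold change -0.96, adjusted p = 0.0257), and the call was lost without wild-type replicate 2 (-0.64, adjusted p = 0.0510), wild-type replicate 4 (0.0531), Tbx20EH1Mut replicate 3 (0.0531) or Tbx20EH1Mut replicate 4 (0.0762). Plxna3 stood at 17.7 ± 3.58 and 17.2 ± 3.54 CPM (adjusted p = 0.887), and was called lower only with the foregut covariate (log2 fold change -0.63, adjusted p = 0.0239). With that covariate 3070 of 17163 genes were called lower.

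**Figure D5:**
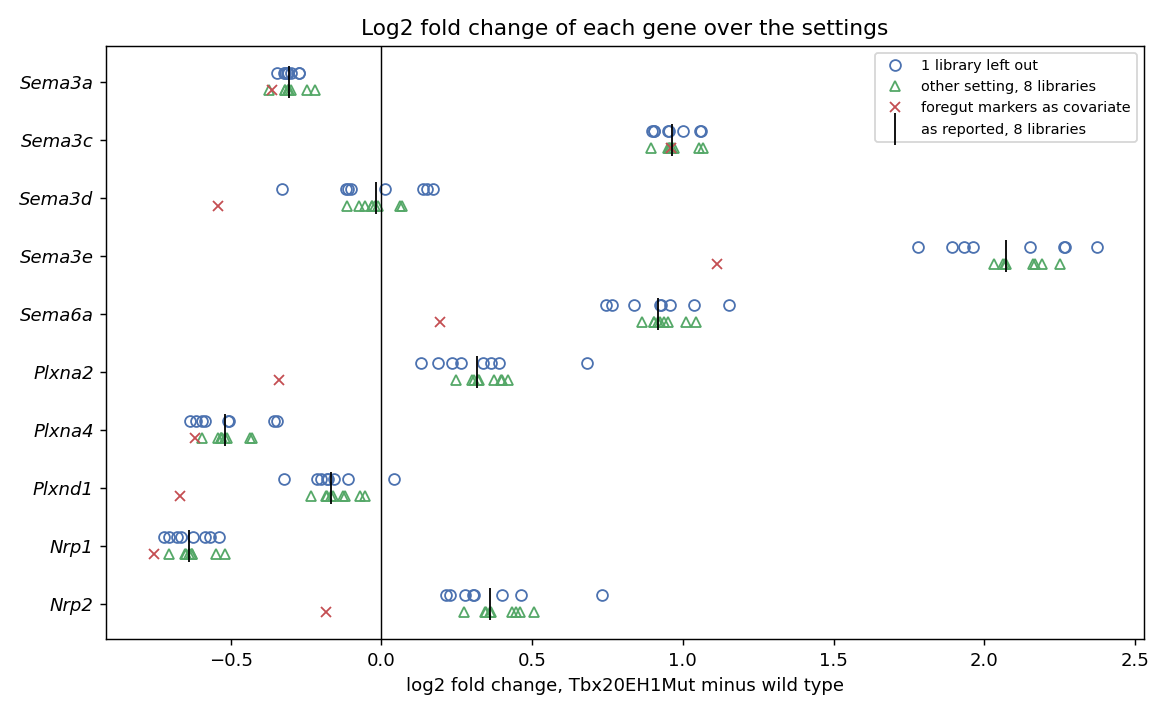
Log2 fold change of each of the 10 genes (horizontal axis, Tbx20EH1Mut minus wild type) as reported (black bar), with 1 library left out (blue circles), under other scalings, filters and tests (green triangles) and with foregut markers as a covariate (red crosses). Sema3a, Sema3c, Sema3e, Sema6a, Plxna4 and Nrp1 keep their side of 0 throughout. Sema3d, Plxna2, Plxnd1 and Nrp2 lie on both sides of 0, and Sema3e and Sema6a move towards 0 with the covariate.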

How the data were processed

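Poly-A selected RNA of 3 pooled E9.5 hearts per library was sequenced on 4 wild-type and 4 Tbx20EH1Mut libraries. The authors deposited raw counts per Ensembl gene. GEO's processing notes name Trimmomatic 0.36, STAR 2.5.2b and GRCm38/mm10; the counting tool, its strand setting and its annotation are not given in the sources used here. Symbols came from GENCODE by gene ID (48970 of 49315 genes). Counts were filtered (filterByExpr), scaled by TMM and tested with edgeR 4.0.16's quasi-likelihood test, genotype as the only term, Benjamini-Hochberg adjustment over 17163 genes, in R 4.3.3. Thresholds (adjusted p 0.05, log2 fold change 0.5) follow the study's methods. TPM used the deposited gene lengths. Single values not in that fit (marker sums, depth, ratios) had exact two-sided permutation tests (scipy 1.17.1). DESeq2 1.42.0, limma 3.58.1, other scalings and filters, a replicate block, a foregut covariate, an offset on gene length (chosen after seeing the data) and leaving out each library were alternatives. The 10 genes, the lists and the likeness rule were chosen with earlier results of these data known. All 10 genes were named. Of the other pathway genes, the 6 most changed of those called with a log2 fold change of 1 or more in size and a mean level of 1 CPM or more were named, as was every class 3 semaphorin and class A plexin. Replicates are separate pools per the study's methods, and p-values measure the spread between pools.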

Additional observations from a re-analysis of the deposited data

How the results depend on the processing

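With all 8 libraries, the 4 calls among the 10 genes (Sema3c, Sema3e, Sema6a and Nrp1) held under RLE, upper-quartile and library-size scaling, DESeq2, limma-voom, no filter, the replicate block and the length offset. With at least 10 counts required in every library, Sema3e was not tested and 3 remained. With the foregut covariate 3 were called, Sema3c, Nrp1 and also Plxnd1, but neither Sema3e nor Sema6a. That fit called 5884 of the 17163 genes tested, against 4218 in the reported fit. With the adjusted p alone there were 5, Sema3a among them, and 5024 of all genes. With the fold threshold raised to 1 (log2), 1 of the 10 (Sema3e), 10 of the other pathway genes and 1859 of all genes were called. Leaving out 1 library gave 3 to 6 of the 10, and 2836 to 5667 of all genes. Upper-quartile scaling called 2516 genes higher and 1566 lower, against 2148 and 2070 in the reported fit.

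Among the 10 genes, Tbx20 and the 10 further pathway genes refitted, signs turned only where no call was made. Sema3d was at 0.063 with upper-quartile scaling, 0.070 with the length offset and -0.33 to 0.17 with 1 library left out. Plxna3 was at 0.053, 0.067 and -0.16 to 0.12 in the same settings. Plxnd1 ran from -0.32 to 0.043 with 1 library left out. With the foregut covariate Plxna2 was at -0.34, Nrp2 at -0.18 and Sema3f at -0.26. The cause was not tested.

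The replicate numbers did not pair the libraries: same-numbered libraries had correlations of -0.35, 0.38, 0.08 and 0.08 across 17163 genes. With the numbers as a block, 4 of the 10 genes and 3681 of all genes were called. Sema3e, the least abundant of the 10, had the widest interval, and the cause of that width was not tested. The intervals given for Plxna2, Plxnd1, Sema3d and Nrp2 include 0, so a difference within them in either direction remains possible. They are not limits of detection, which were not estimated.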

Other observations

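Neuropilins also serve vascular endothelial growth factors, and 3 of 4 genes of that branch were called higher in Tbx20EH1Mut hearts, against 12.5% of all genes tested. Vegfa, a ligand of Nrp1, had 123, 125, 124 and 140.0 CPM in wild-type and 376, 373, 235 and 373 CPM in Tbx20EH1Mut libraries. The groups did not overlap, and Tbx20EH1Mut replicate 3 was the lowest of its group (log2 fold change 1.40, SE 0.16, edgeR adjusted p = 3.78e-04). Vegfc, a ligand of Nrp2 (0.94, adjusted p = 0.00265), and Kdr, the receptor that pairs with Nrp1 (0.68, adjusted p = 0.0119), were called as well and are named after their values were seen. Flt4, the receptor for VEGF-C, was not called (0.09, adjusted p = 0.753).

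Of 17 intracellular partners of plexins and neuropilins, 1 was called higher and 5 lower, against 12.5% and 12.1% of all genes tested. Limk1, the kinase that phosphorylates cofilin, had 19.3, 50.7, 34.6 and 34.0 CPM in wild-type and 18.1, 20.5, 11.0 and 14.7 CPM in Tbx20EH1Mut libraries. The groups overlapped through wild-type replicate 1 (log2 fold change -1.11, edgeR adjusted p = 0.0159), and the call was lost without Tbx20EH1Mut replicate 4 (adjusted p = 0.0523). Farp2, an exchange factor that associates with Plxna1, had 2.60 ± 1.37 and 0.698 ± 0.448 CPM (-1.89, adjusted p = 0.0268), and lost its call in 5 of 8 fits that left out 1 library. Named after their values were seen, the others called lower were Dpysl3 (-0.67) and Crmp1 (-0.70), collapsin response mediators, and Mical2 (-1.06), an actin-oxidising enzyme, and the gene called higher was Rras (1.03), a small GTPase on which plexins act.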
